A study of Mus musculus with 8 samples.

Results

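The regions described here were 1617 stretches of mouse mRNA that covered a stop codon and carried a peak of N6-methyladenosine (m6A) enrichment in at least 3 of 4 mice. Peaks were measured by methylated RNA immunoprecipitation sequencing (MeRIP-Seq), in which fragments pulled down with an antibody against m6A (IP) are compared with the unselected RNA (input). The peak lists of the 4 mice were merged wherever peaks overlapped by 1 bp or more on the same strand, which gave 12350 regions on GRCm38, and each region was assigned to the coding gene with the largest exon overlap in GENCODE M21. A region was selected on its peaks alone: it had a peak in 3 or 4 lists and overlapped the stop codon, but not the start codon, of the longest coding transcript of its gene. The selected regions made up 13.1% of all regions and 42.8% of the 3775 regions with a peak in 3 or 4 lists. They lay on 1617 different genes, 23.0% of the 7029 coding genes with a peak in any list. Since presence of a peak chose them, recurrence and position over the stop codon are properties of the choice and not results.

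The cells were bone marrow-derived macrophages (BMDMs), grown for 7 days with 40 ng/mL M-CSF, the growth factor that drives macrophage differentiation, from 8-week-old C57BL/6 mice. The WT group was 2 *Mettl3* fl/fl mice without Cre (*Lyz2* +/+), and the KO group was 2 littermate *Mettl3* fl/fl mice with Cre inserted in the *Lyz2* locus (*Lyz2* cre/+), so both groups carried the floxed allele. *Lyz2*-driven Cre acts in myeloid cells, and deletion in such cultures can be incomplete. Each mouse gave 1 IP and 1 input library, 8 in all, and 1 peak list, named after the mouse: WT-1 (6159 peaks), WT-2 (6263 peaks), KO-1 (6378 peaks) and KO-2 (6684 peaks), and 4 values in a row below stand in this order. They gave no read counts, so the depth behind each peak is unknown. No region lay on *Mettl3* itself, and the lists could therefore not be used to check the deletion. Of 9 macrophage markers, *Mertk*, *Fcgr1* and *Cd14* had a peak in any list, and of 22 markers of T, B, neutrophil, erythroid, dendritic and stromal cells 5 had one (*Cd4*, *Pax5*, *Col1a1*, *Pdgfrb* and *Cdh5*), none of them over a stop codon in 3 lists. A peak needs both a transcript and enrichment in the pull-down, so these counts do not measure cell content.

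m6A is deposited on nascent mRNA by a complex of the catalytic subunit METTL3 with METTL14, WTAP, VIRMA, ZC3H13, HAKAI and RBM15 or RBM15B. The complex modifies adenosines in a short consensus called DRACH, most often in the form GGAC with the A as the methylated base. YTHDC1 reads the mark in the nucleus and YTHDF proteins read it in the cytoplasm, where they affect the decay and translation of the mRNA. In mammalian cells the mark is known to be dense in long internal exons and around stop codons, at the start of the last exon, and exon junction complexes are known to keep it away from the ends of short exons.

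To show what such sites look like, 8 stop codons with GGAC close by are printed from the GENCODE M21 transcript sequences. They were picked for that proximity from the named genes, so they do not stand for the average region. Each line reads 5′ to 3′ on the mRNA and holds 60 coding bases, the stop codon and 27 bases of 3′-UTR. Capitals mark GGAC and the stop codon. In *Skil*, a repressor of SMAD transcription factors, and *Atg2a*, a lipid transfer protein of autophagy, GGAC ended directly before the stop codon. In *Stat2*, a transcription factor of interferon signalling, GGAC began directly after the stop codon. In *Dusp4*, a phosphatase of MAP kinases, the last letter of the stop codon was also the first letter of GGAC. In *Tlr4*, the receptor for lipopolysaccharide, and *Bag4*, a co-chaperone, 1 and 2 bases lay between them. In *Rbm15b*, which brings the writer complex to RNA, the gap was 6 bases, and in *Ifnar2*, a chain of the type I interferon receptor, it was 15 bases. Not every list had a peak over the stop codon itself. In *Rbm15b* only the KO lists had one, and in *Atg2a* only WT-2. In the other printed genes every list had one.
*Skil*, chr3:31118551-31118640, plus strand: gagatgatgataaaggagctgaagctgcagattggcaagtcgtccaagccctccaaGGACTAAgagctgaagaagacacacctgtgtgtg
*Atg2a*, chr19:6261775-6261864, plus strand: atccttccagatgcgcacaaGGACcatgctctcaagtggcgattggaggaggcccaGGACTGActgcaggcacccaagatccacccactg
*Stat2*, chr10:128291311-128291400, plus strand: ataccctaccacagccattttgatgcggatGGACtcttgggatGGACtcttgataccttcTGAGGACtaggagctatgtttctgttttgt
*Dusp4*, chr8:34818721-34818810, plus strand: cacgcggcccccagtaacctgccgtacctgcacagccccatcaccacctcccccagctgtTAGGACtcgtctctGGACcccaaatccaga
*Tlr4*, chr4:66841417-66841506, plus strand: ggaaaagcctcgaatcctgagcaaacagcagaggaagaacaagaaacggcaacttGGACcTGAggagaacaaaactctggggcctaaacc
*Bag4*, chr8:25767897-25767986, minus strand: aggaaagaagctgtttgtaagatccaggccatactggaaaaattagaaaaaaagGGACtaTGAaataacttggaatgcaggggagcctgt
*Rbm15b*, chr9:106884277-106884366, minus strand: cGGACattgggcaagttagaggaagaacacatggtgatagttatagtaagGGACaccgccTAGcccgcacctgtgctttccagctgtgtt
*Ifnar2*, chr16:91404352-91404441, plus strand: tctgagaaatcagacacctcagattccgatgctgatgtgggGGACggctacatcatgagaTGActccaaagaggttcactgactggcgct

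The letters around the stop codon were not used to choose the regions, and GGAC was more frequent there than in other genes. Within 100 bases on either side of the stop codon on the sense strand, GGAC occurred in 65.9% of the genes with a recurrent stop codon region (1041 of 1579 with a window of full length; 95% Wilson interval 63.6 to 68.2%). It occurred in 59.3% of the 2937 genes that had a peak elsewhere and none over the stop codon, and in 58.6% of 19078 coding genes. GGACT, a subset of GGAC, occurred in 30.1%, 22.1% and 23.1% of the same sets. CAGG, the letters of GGAC in reverse order, occurred in 69.8%, 70.7% and 69.1%, and the mean GC content of the windows was 49.2%, 50.2% and 49.4%. DRACH occurred in 99.6% of the windows of the selected genes and in 98.9% of those of all coding genes, so its presence separated nothing at this length. Genes are not replicates, the intervals cover counting error only, and the differences between the sets were not tested.

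The excess of GGAC was spread over both sides of the stop codon and was smaller at a distance. In the 50 bases after the stop codon, GGAC started 6.25 times per kilobase in the selected genes, against 4.83 in genes with a peak elsewhere only and 5.08 in all coding genes. In the last 50 bases before it, the rates were 5.90, 4.64 and 4.77 per kilobase. Between 450 and 500 bases upstream the rate was 4.68 per kilobase in the selected genes and 4.79 in all coding genes, and between 450 and 500 bases downstream it was 3.36 and 3.10. The nearest GGAC lay at a median distance of 57 bases from the stop codon in the selected genes, 75 bases in genes with a peak elsewhere only and 74 bases in all coding genes. It lay on the coding side in 861 of the 1617 genes, on the 3′-UTR side in 743, in or touching the stop codon in 9, and 4 transcripts had none.

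**Figure D1:**
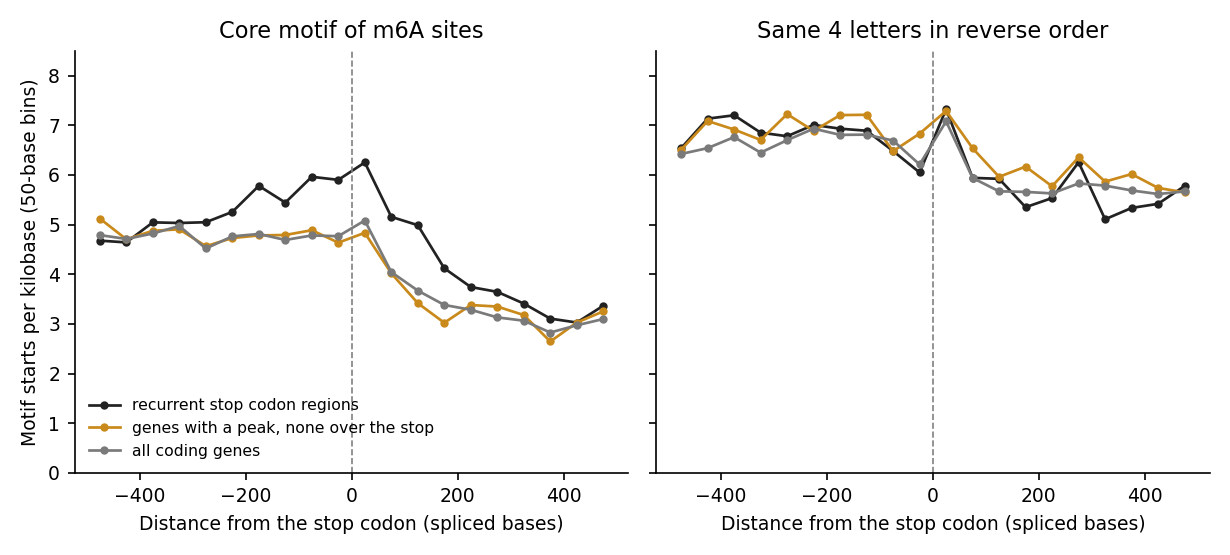
Motif starts per kilobase of spliced mRNA (vertical axis) in bins of 50 bases by distance from the stop codon (horizontal axis, 3′-UTR to the right), for GGAC on the left and the same letters in reverse order on the right. Lines stand for the genes with a recurrent stop codon region, genes with a peak elsewhere only and all coding genes. For GGAC the first line rises to 6.25 per kilobase after the stop codon against 5.08 in all coding genes. For the reversed letters the lines cross: the same bin stands at 7.32 against 7.08. In the 50 bases before the stop codon they stand at 6.05 against 6.83 in genes with a peak elsewhere only.

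The share with GGAC did not rise with how often or how strongly a stop codon region was called. It was 66.7% of 1263 genes whose stop codon region had a peak in 1 list only, 69.7% of 781 genes with 2 lists, 66.1% of 595 with 3 lists and 65.9% of 984 with 4 lists. When the 1617 regions were ordered by their mean score percentile, the share was 66.2% in the lowest 399 with a full window and 64.5% in the highest 400. GGACT ranged from 28.8% to 30.6% over the list numbers. The 95% intervals of the 4 GGAC shares overlapped, and the differences between the shares were not tested.

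GGAC was more frequent in the 3′-UTR where the peaks lay further into the 3′-UTR. On the coding side it was most frequent where they were centred within 100 bases of the stop codon. In 876 regions (54.2%) the midpoint of the peaks, averaged over the lists, was 100 or more bases into the 3′-UTR, in 381 it was within 100 bases of the stop codon, and in 360 it was 100 or more bases into the coding sequence. Over the first 300 bases of 3′-UTR, GGAC occurred 5.37, 4.0 and 2.96 times per kilobase in these 3 classes. Over the last 300 coding bases it occurred 5.37, 6.24 and 5.34 times per kilobase. The classes also differed in gene structure: the median coding stretch before the stop codon in its own exon was 160, 306 and 1193.5 bases, and the median 3′-UTR 1953.5, 1338 and 1259.5 bases. These classes were made from the peak positions, so the values are a description.

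The genes had long terminal exons. The exon with the stop codon had a median length of 2277 bases, against 1448 in genes with a peak elsewhere only and 1116 in all 21511 coding genes with a complete coding transcript. The median 3′-UTR was 1717, 1172 and 745 bases, and the coding stretch before the stop codon in its exon 250, 148 and 179 bases. Coding length was 1677 bases in the selected genes and 1659 in genes with a peak elsewhere only, so the 2 sets differed at the 3′ end more than in the coding sequence. The stop codon lay in the last exon in 99.1% of the selected genes, 92.7% of genes with a peak elsewhere only and 95.9% of all coding genes. TGA, TAA and TAG made up 49.8%, 26.5% and 23.7% of the stop codons, next to 49.3%, 27.9% and 22.8% in all coding genes. These differences between gene sets were not tested.

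Many peaks began at an exon edge. Among peaks over a stop codon in genes with an intron upstream, 52.1% and 53.9% in the WT lists and 53.5% and 58.4% in the KO lists began exactly at the first base of the exon that holds the stop codon. Only 6.83%, 6.74%, 6.65% and 8.24% ended at the last base of that exon. In 289 of the 1003 regions with a peak in all 4 lists (28.8%) the 5′ edge was the same base in every list, and in 284 of these it was the first base of the exon. The 3′ edge was shared in 66 (6.58%), and 20 regions had identical edges throughout. The distance between a peak's start and the stop codon was thus often the length of the coding stretch of that exon.

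The regions extended further into the 3′-UTR than into the coding sequence. Their width had a median of 1009 bp (quartiles 706 and 1519 bp) and ran from 305 to 17498 bp. The median reach was 224 spliced bases upstream of the stop codon and 581 downstream, and 1129 regions (69.8%) reached further downstream. Positions were counted on the chosen transcript; 244 regions lay partly off its exons and 205 ran past its 3′ end, and there the reach and the midpoints are cut short. Merging made part of this width: 1381 regions held at most 1 peak per list, and 236 held more in some list. The list's own peak covered the stop codon itself in 4 lists for 733 regions, in 3 for 551, in 2 for 196 and in 1 for 137, so in 333 regions fewer than 3 lists had a peak over the stop codon itself and the others only touched the merged stretch. Recurrent regions inside the coding sequence (1143) and inside the 3′-UTR (295) had median widths of 722 and 807 bp. GGAC occurred at 4.37, 4.93 and 3.95 per kilobase of the stop codon, coding and 3′-UTR regions. A peak in all 4 lists was present in 62.0% of the stop codon regions, 58.8% of the coding regions and 35.9% of the 3′-UTR regions. The number of lists was part of the choice of all these sets, and their widths differed. These shares are therefore a description, and the differences were not tested.

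In each mouse, coverage of the 1003 regions with a peak in 4 lists was highest at or just past the stop codon. The regions were chosen for overlap with the stop codon, so the place of this maximum follows largely from the choice. At the stop codon 84.4% and 85.0% of them were covered in the WT mice and 90.2% and 94.4% in the KO mice. At 500 bases into the 3′-UTR the shares were 51.4%, 46.6%, 50.8% and 59.7%, and at 500 bases upstream 26.5%, 24.9%, 28.8% and 31.1%. KO-2 lay above the other lists at each of these places. It was also the list with the most peaks and the widest ones.

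**Figure D2:**
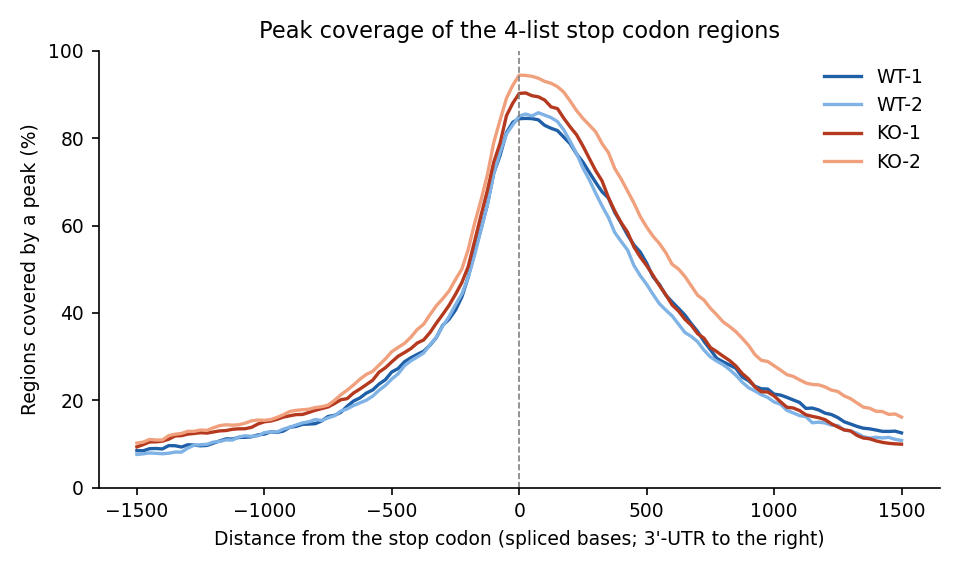
Percent of the 1003 regions with a peak in all 4 lists that are covered by a peak (vertical axis) at each distance from the stop codon (horizontal axis, spliced bases, 3′-UTR to the right), 1 line per mouse; only transcripts that reach the distance are counted. All 4 lines are highest at the stop codon or within 75 bases after it, stand between 84.4% in WT-1 and 94.4% in KO-2 at the stop codon itself, and fall more slowly into the 3′-UTR than into the coding sequence. The place of the maximum follows largely from the choice of regions that overlap the stop codon.

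Genotypes were compared on 3 measures taken over all stop codon peaks of a list, not only the recurrent ones, with an exact permutation test (two-sided) of the 4 lists. With 2 mice in each group this test has 6 labellings and cannot give a p below 0.333. Each value that enters it comes from 1 culture of 1 mouse, so differences between cultures and between mice cannot be told apart. The share of a list's assigned peaks that lay over a stop codon was 31.2% and 34.8% in the WT lists, and 30.5% and 33.2% in the KO lists. The means were 33.0% ± 2.57 in WT and 31.9% ± 1.905 in KO (SD, n = 2), and the difference of -1.11 percentage points was smaller than the spread within WT (exact permutation p = 0.667). The median midpoint of stop codon peaks lay 83.25, 98.5, 80.0 and 97.5 spliced bases past the stop codon, 90.9 ± 10.8 in WT and 88.8 ± 12.4 in KO (exact permutation p = 0.667, n = 2). The groups overlapped in both measures. In both, the second list of each genotype stood above the first, and each KO list stood below the same-numbered WT list. The permutation test did not use this pairing by number.

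Stop codon peaks were wider in both KO lists. Their median width was 618 and 620 bp in the WT lists and 655 and 704 bp in the KO lists, that is 619 ± 1.41 bp in WT against 679.5 ± 34.6 bp in KO (SD, n = 2). The difference of 60.5 bp gave the smallest p the design allows (exact permutation p = 0.333). The widths of all peaks of the lists stood in the same order, at 478, 498, 501 and 543 bp. The KO lists also held more peaks, and 16.2% and 19.5% of their peaks stood at or above a score of 3100, against 10.3% and 13.5% in WT. The part of these differences between lists in the width of stop codon peaks was not tested.

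The caller's score ran from 50.05 to 3233.06 and piled up at 3100, so peaks at that value could not be ranked. Scores were therefore compared as percentiles within a list, that is the percent of the list's peaks with a score at or below that of the peak. A region's score in a list was that of its highest-scoring peak, which need not cover the stop codon. A peak at 3100 had a percentile of 99.7 and 99.1 in the WT lists and of 99.4 and 99.3 in the KO lists. The median percentile of the stop codon regions was 64.4, 67.1, 65.1 and 64.9 in the 4 lists. For regions with a peak in 4 lists it was 71.0, 73.2, 73.4 and 74.4, and for regions with 3 lists 47.0, 50.4, 45.9 and 47.6. Stop codon regions with a peak in only 2 lists, just outside the selection, had medians of 36.1, 41.7, 34.0 and 35.8. Recurrent coding regions stood at 72.9, 68.1, 75.5 and 73.0 and recurrent 3′-UTR regions at 53.9, 49.5, 48.5 and 43.0. How the score entered the peak calls is not given. The number of lists was part of the choice, so the rise of the percentile with it is a description of the selection. A single region varied widely between mice: the range over the 4 lists had a median of 38.1 percentile points, and in 347 of 1003 regions it was over 50 points. The median distance between the 2 WT lists was 19.2 points and between the 2 KO lists 15.2.

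At the top, 101 regions scored 3100 or more in all 4 lists, and 976 stayed under 3100 in every list. The peak with that score lay over the stop codon or elsewhere in the region. By the lowest of the 4 percentiles the first 12 were *Ahrr*, *Zfp503*, *Arl5a*, *Mtmr10*, *5430427O19Rik*, *Aim2*, *Ano6*, *Apc*, *Arglu1*, *Atf3*, *Bag4* and *Bmp2k*. All 12 shared the same lowest percentile of 99.1 with the other regions at 3100, and their places came from ties broken by the mean percentile and then by the alphabet. *Ahrr* encodes the repressor of the aryl hydrocarbon receptor, and its region (chr13:74211940-74214665, minus strand) reached 1006 spliced bases upstream and 1717 downstream of the stop codon. *Aim2*, the cytosolic DNA sensor of an inflammasome, had a region of 875 bp, nearly all of it in the 3′-UTR, with 45 bases upstream of the stop codon and 827 downstream. *Atf3*, a stress-induced transcription factor, had midpoints at 489.5, 496.5, 496.5 and 496.5 bases past the stop codon, nearly the same in every mouse. *Ano6*, a membrane scramblase, had a region of 2978 bp of which 465 bases lay on the chosen transcript, so its peaks could not be placed by their midpoints. *Apc*, a scaffold of the complex that degrades beta-catenin, had a region of 4569 bp with 4263 bases upstream and 2 or 3 peaks in each list. Midpoints of the longest peak ran from -3367.5 bases in WT-1 to -565.5 in WT-2. The *Apc* peaks over the stop codon scored 1238.39, 3100, 2564.26 and 1216.27.

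Genes of the m6A pathway were among the carriers. Of 18 writers, erasers and readers, 13 had a peak in any list and 6 had a recurrent stop codon region: *Rbm15b*, *Virma*, *Zc3h13*, *Ythdc1*, *Ythdf2* and *Ythdf3*. *Ythdc1*, the nuclear reader, scored 3100 in all 4 lists, with midpoints between 64.0 and 185.0 bases past the stop codon. *Ythdf2*, the reader that promotes mRNA decay, scored 3100, 2941.86, 3100 and 3100, within a region of only 396 bp whose midpoints ranged from 169.0 to 176.5 bases. *Ythdf3* scored 908.9 in WT-1, 2883.87 in KO-1 and 3048.3 in KO-2 and had no peak in WT-2. *Rbm15b* scored 2212.22, 399.36, 1370.12 and 953.37, and its peaks lay mostly in the coding sequence, with a region that reached 2294 bases upstream and 129 downstream. *Virma* and *Zc3h13*, subunits of the writer complex, had no peak in WT-1 and percentiles between 9.61 and 34.9 in the other lists. *Ythdc1* and *Ythdf2* stood above the 3 writer subunits in every list, and no gene had non-overlapping WT and KO scores among those with 4 lists.

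Toll-like receptors and their signalling proteins had 15 recurrent stop codon regions among the 30 of 37 listed genes with a peak, 12 of them in all 4 lists. *Tlr4*, *Tlr8*, a sensor of RNA, and *Tlr13*, a sensor of bacterial ribosomal RNA, scored 3100 in every list. In all 3, the peaks lay largely in the coding sequence: midpoints were -857.5, -728.5, -462.5 and -462.5 bases for *Tlr4*, -812.0, -850.0, -877.0 and -809.5 for *Tlr8*, and -1006.0, -988.5, -1038.0 and -1038.0 for *Tlr13*. The *Tlr4* midpoints of both KO lists lay nearer to the stop codon than those of both WT lists, while for *Tlr13* they lay further upstream and for *Tlr8* they overlapped. *Tlr9*, the receptor for unmethylated CpG DNA, had the same layout at percentiles of 73.3, 73.8, 69.0 and 66.1. *Tab2*, an adaptor of the kinase TAK1, had midpoints from 821.5 to 884.5 bases past the stop codon and scores of 3100 in 3 lists and 2970.39 in KO-1. *Tnfaip3* and *Nfkbia*, inhibitors of NF-kB signalling, also had regions, in 4 and 3 lists.

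In the interferon list the regions lay on receptor chains and *Stat2*. Of 29 genes 20 had a peak, and 4 had a recurrent stop codon region, all in 4 lists: *Ifnar1* and *Ifnar2*, the chains of the type I interferon receptor, *Ifngr1*, the ligand-binding chain of the interferon-gamma receptor, and *Stat2*. *Ifngr1* had scores of 3100 and a midpoint of -3.0 bases in all 4 lists. *Ifnar2* scored 3100 throughout, with midpoints of 197.5, 170.0, 57.0 and 164.5. *Stat2*, whose stop codon is directly followed by GGAC, scored 346.64 and 1264.83 in WT and 857.66 and 2794.35 in KO. *Ifnar1* was the least even, with 109.57 and 3100 in WT and 600.33 and 2301.93 in KO, a spread between the WT mice wider than that between genotypes. No SOCS gene had a recurrent stop codon region.

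Regulators of Ras and MAP kinases had 9 regions among 25 genes with a peak (33 listed). *Spred1*, an inhibitor of Ras signalling, scored 3100 in every list, with midpoints of 191.0 and 32.5 bases in WT and -202.0 and -302.0 in KO. *Rasa1*, a GTPase-activating protein for Ras, scored 3100 in 3 lists and 1169.57 in WT-2. Only its KO-2 peak covered the stop codon itself, and the peaks of the other lists lay in the 3′-UTR. *Dusp4* scored 2180.97 and 1835.42 in WT and 591.59 and 746.63 in KO, so that both KO values lay below both WT values, also as percentiles (85.4 and 75.8 against 49.6 and 48.5). *Map3k1*, a kinase at the head of a MAP kinase cascade, scored 472.02, 2833.32, 1326.64 and 1408.23. *Nf1*, *Sos1*, *Sos2*, *Hras* and *Dusp16* were the others.

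Immediate early and AP-1 genes had 8 regions among 16 with a peak (21 listed), 4 of them in all lists. *Klf2* scored 1481.1 and 2287.0 in WT and 454.96 and 1713.67 in KO. *Fosl2*, an AP-1 subunit, had scores of 183.45, 482.78, 1417.51 and 739.73 with midpoints that ranged only from 358.5 to 369.0 bases. Both KO scores of *Fosl2* exceeded both WT scores. *Klf10* had the weakest start, with 56.4 in WT-1 at a percentile of 0.698 and 1937.09 in KO-2. *Fos*, *Egr1*, *Myc* and *Ier5* had a peak in 3 lists.

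Transcription factors and receptors of macrophages had 7 regions among 21 genes with a peak (32 listed). *Zeb2* scored 3100 in all lists. *Ccr2*, the receptor for the monocyte chemokine CCL2, scored 1699.95 and 1959.63 in WT and 3100 in both KO lists, and its midpoints were between -558.0 and -235.0 bases. *Mitf* scored 1056.5, 2970.04, 2794.58 and 1968.18. *Mertk*, a receptor for apoptotic cells, had a stop codon region with a peak in 3 lists, at percentiles of 48.1, 10.5 and 0.251, and none in KO-2.

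Of the cholesterol genes 14 of 20 had a peak and 4 had a region. *Abca1* and *Abcg1*, the transporters that export cholesterol, had a peak in all lists. *Abca1* scored 1807.07 in WT-1 and 3100 in the others, and *Abcg1* 352.14, 728.88, 550.82 and 540.35. For *Abca1* the midpoint of the longest peak was 365.0 and 1263.5 bases in WT and 213.5 in both KO lists, and for *Abcg1* 1276.5 and 307.0 in WT and 244.5 and 263.5 in KO. The groups did not overlap on this measure, but they did on the highest-scoring peak, whose midpoints were 1484.5 and 194.5 in WT for *Abca1* and 206.5 and 307.0 for *Abcg1*, with the KO values unchanged. *Mylip*, a ubiquitin ligase for the LDL receptor, had peaks in 3 lists.

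Chromatin regulators had the highest share, with 18 regions among 33 genes with a peak (39 listed), 10 of them in 4 lists. *Suz12*, a subunit of a histone methyltransferase complex, scored 3100 in 3 lists and 1809.67 in WT-2. *Chd1*, a remodelling enzyme, scored 3100 in 3 lists and 1414.65 in WT-2. *Arid1a* and *Arid1b*, alternative subunits of the BAF remodelling complex, had regions that each reached 1722 bases upstream of the stop codon, with midpoints from -1093.0 to -242.0 and from -795.0 to -381.0 bases on the chosen transcripts; the *Arid1b* region ran past its transcript. For all 4 genes WT-2 gave the lowest score. In the TGF-beta list, in which all 20 genes had a peak, 7 had a region: *Skil* and *Ski*, repressors of SMAD proteins, *Smad1*, *Smad2* and *Smad4*, and the receptors *Acvr1* and *Acvr2a*. *Acvr2a* had midpoints from 117.5 to 126.5 bases, and *Ski* from 297.5 to 1259.0.

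Other lists had few. Of the mRNA decay factors 25 of 34 had a peak and 4 a recurrent stop codon region, namely *Smg1* and *Upf2* of nonsense-mediated decay, the deadenylase subunit *Pan3* and the decapping enzyme *Dcp2*. Of 28 lysosome and autophagy genes 13 had a peak and 2 a region, *Wipi2* and *Atg2a*, both without a peak in WT-1. Of 29 ribosomal and respiratory chain genes 2 had a peak, and *Rps6* had a region in 3 lists. In all, 85 of the 231 genes of the 12 lists with a peak had a recurrent stop codon region (36.8%), next to 23.0% over all 7029 genes with a peak. The lists were chosen with earlier results of these data known, so this share is a description.

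**Figure D3:**
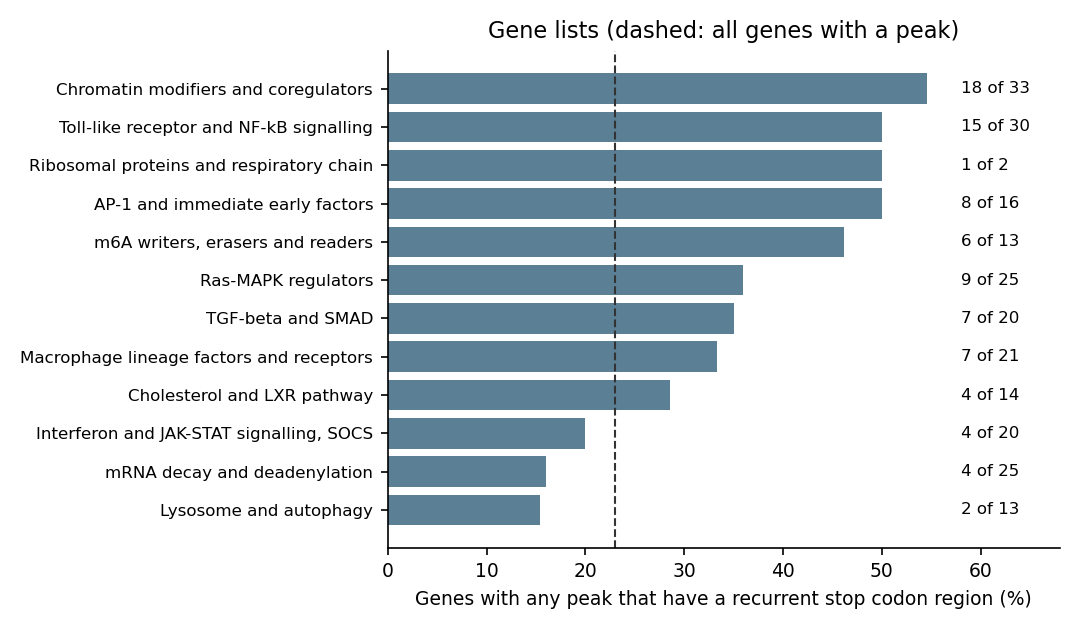
Percent of the genes with a peak in any list that had a recurrent stop codon region (bars, horizontal axis), by gene list, with the counts at the right. The dashed line marks 23.0%, the share over all 7029 genes with a peak; chromatin regulators stand highest, at 18 of 33, and lysosome and autophagy genes lowest, at 2 of 13.

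**Figure D4:**
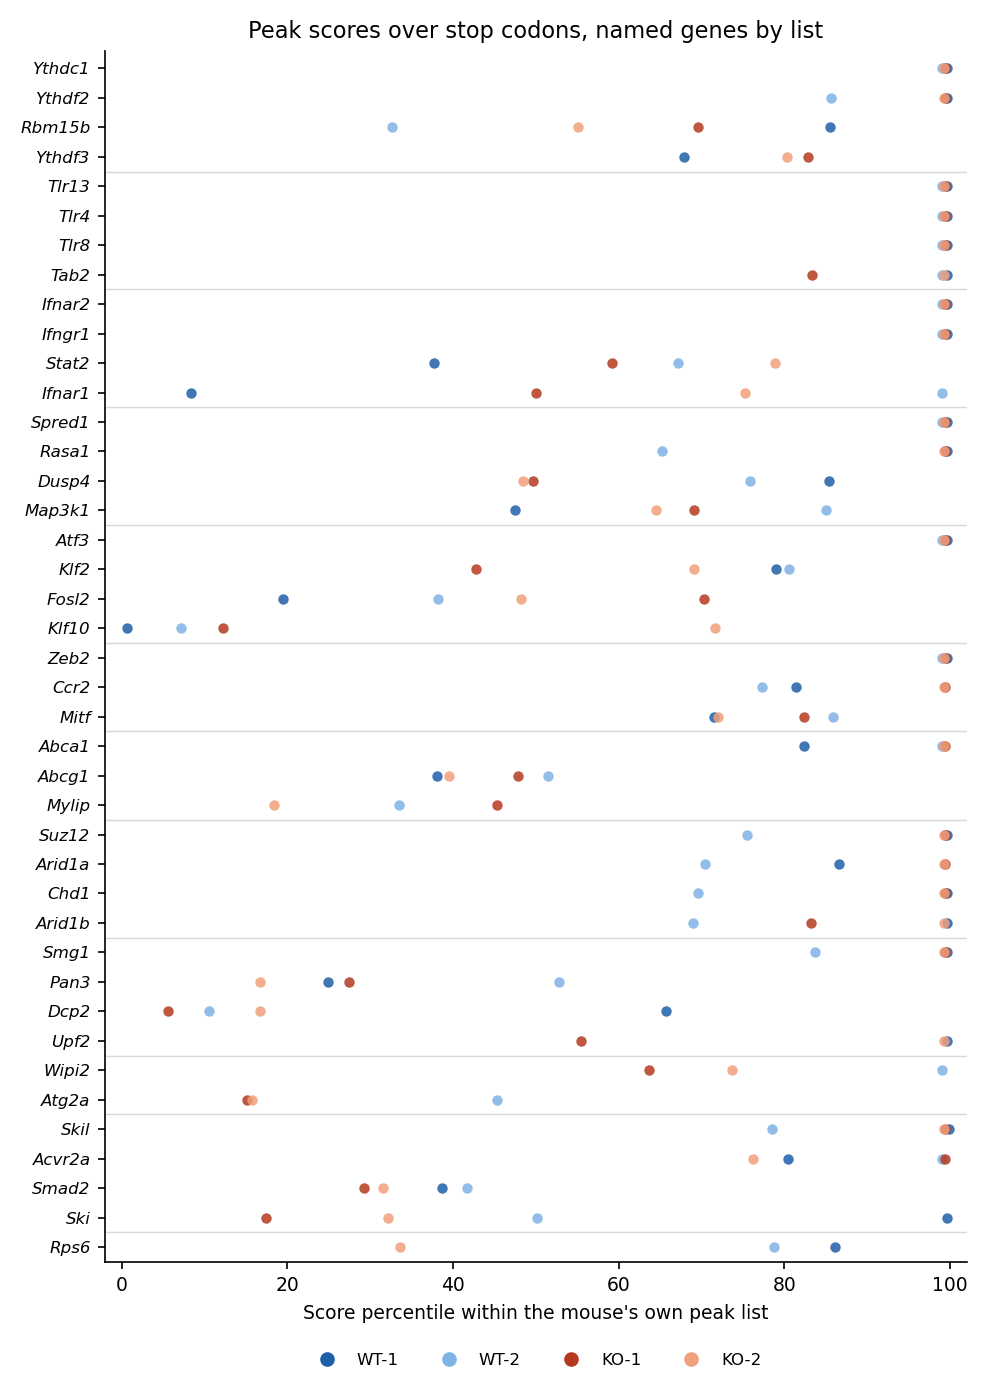
Percentile of the region's highest score within each mouse's own peak list (horizontal axis) for named genes of each gene list, with lines between the lists, m6A genes at the top, and 1 point per mouse. The highest score need not come from a peak over the stop codon. Points at the right edge stand for scores at 3100; *Ythdc1*, *Tlr4* and *Ifnar2* sit there in all 4 lists, while *Ifnar1* and *Klf10* spread from under 10 to over 70.

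Among regions with a peak in exactly 3 lists, 373 of 614 stop codon regions (60.7%) lacked a WT list and 241 lacked a KO list. The same held for 67.7% of all 1572 regions with exactly 3 lists, and the difference between these shares was not tested. By mouse, 195 lacked the first and 178 the second WT list, and 131 lacked the first and 110 the second KO list, so the fewer peaks a list held, the more regions lacked it.

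In regions with a peak in 4 lists, genotypes were compared by whether the values of both WT lists lay on the same side of those of both KO lists. The midpoint of the longest peak lay further 3′ in KO in 233 of 1003 stop codon regions (23.2%) and further 5′ in 166 (16.6%). Over all 2203 regions with 4 lists these shares were 19.9% and 17.4%. The gap between the stop codon regions and the background in the 3′ direction was not tested. Over 996 regions with a midpoint on the transcript in every list, KO minus WT had a median of 1.0 base (quartiles -65.3 and 87.5). The median distance was 92.25 bases between the 2 WT lists, 35.5 between the 2 KO lists and 75 between the genotype means; a distance between means and a distance between single lists are not on the same footing, and no test was made. The score percentile was higher in KO in 221 regions (22.0%), against 23.6% of all regions, and higher in WT in 133 (13.3%), against 9.35%. A score of 3100 has a different percentile in each list, so equal scores of 3100 can stand apart on percentiles. On raw scores the counts were 216 and 85 (21.5% and 8.47%), against 23.4% and 5.99% of all regions. KO therefore more often had the higher score in stop codon regions, as in all regions.

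**Figure D5:**
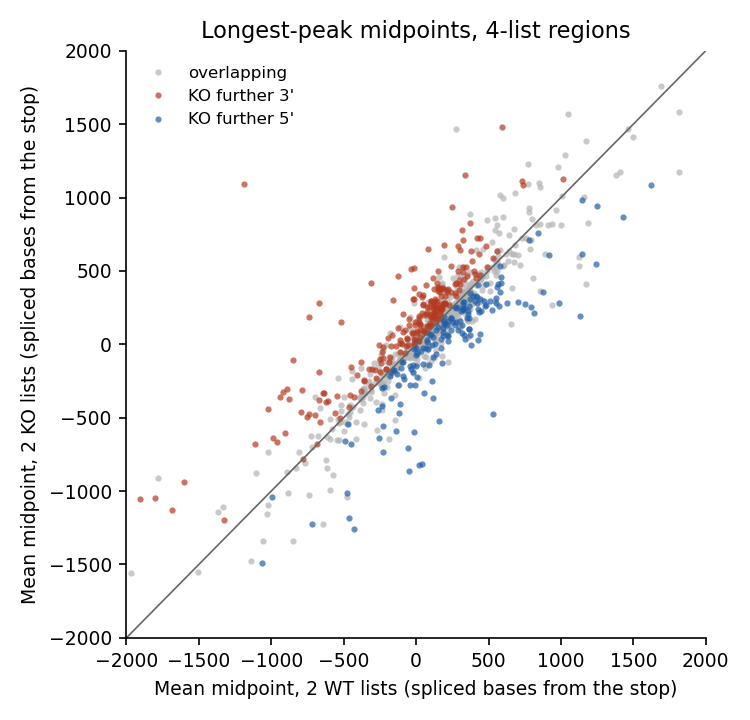
Mean midpoint of the longest peak in the 2 KO lists (vertical axis) against the 2 WT lists (horizontal axis), both in spliced bases from the stop codon, for regions with a peak in all 4 lists; 989 of 996 regions lie within the axes. Colours mark regions whose KO midpoints both lay further 3′ or further 5′ than both WT midpoints; most points lie along the line of equality.

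Among the regions whose WT and KO midpoints did not overlap, the 5 largest shifts in each direction all came from regions with more than 1 peak in some list, in which the longest peak need not be the same one in each mouse. Towards the 5′ end in KO, *Plekhm3* had midpoints of 2564.0 and 2398.5 bases in WT and 516.5 and 682.5 in KO, with 2 peaks in 3 of the lists. *Cttnbp2nl*, *Fryl*, *Galnt4* and *Zbtb34* followed, with KO minus WT between -1004.0 and -848.25 bases. Towards the 3′ end, *Arhgap31*, a GTPase-activating protein, moved from -1554.5 and -819.5 to 1840.5 and 349.5, with 3 peaks in 3 of the lists. *Zfp607a*, *Zfp281*, *Prokr1* and *Filip1l* followed, with differences between 852.0 and 947.75 bases. These 10 were picked for their difference, which is a description. With the highest-scoring peak in place of the longest, the direction turned in 6 of the 10 (*Plekhm3*, *Fryl*, *Galnt4*, *Arhgap31*, *Zfp281* and *Prokr1*).

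The 6 widest regions were single long peaks or runs of several. *Ahnak*, which encodes a giant scaffold protein, had a single peak in each list, with the same midpoint of -7874.5 bases, and a region of 17498 bp. *Plec*, a cytoskeletal linker, had a region of 7372 bp, *Arhgap31* 5476 bp, *Rassf4* 5291 bp, *Apc* 4569 bp and *9930111J21Rik2* 4519 bp. *Rassf4* lay almost wholly in the 3′-UTR, with 5230 bases downstream and 58 upstream of the stop codon. *Plec* lay mostly in the coding sequence, with 6213 bases upstream and 1156 downstream.

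At the edge of the selection, the region of *Dnajc11* began inside the stop codon and ran 654 bases into the 3′-UTR, and that of *Zfp800* ended inside it after 1685 coding bases. The transcript chosen for *Abl2*, the next by this measure, has no 3′-UTR, and its region ran on past the stop codon beyond that transcript. Just outside, regions of *Agfg2* and *Trim12a* missed the stop codon by 1 base and that of *Slamf6* by 2 bases, all on the 3′-UTR side and in 3 lists. In all, 69 recurrent coding or 3′-UTR regions ended within 50 bases of the stop codon. A further 810 stop codon regions had a peak in exactly 2 lists and 1305 in 1 list, and 129 recurrent regions that covered both start and stop codon were left out.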

How the data were processed

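MeRIP-Seq was made from 8 libraries of BMDMs, an IP and an input library from each of 2 WT and 2 KO mice. Per the submitters' processing notes, reads were handled with cutadapt 1.9.3 and HISAT2 2.0.4 and mm10; the peak caller and its settings are not given in the sources used here. The authors deposited 1 peak list per mouse with position, strand and score. Each peak starts 1 base after the deposited start, since starts then coincide with exon starts. Peaks were merged, assigned to GENCODE M21 coding genes and placed on the complete coding transcript with the longest coding sequence (ties by spliced length). The 12 gene lists, the members and the rule for named genes were chosen with earlier results of these data known. Named genes were the 12 regions with the highest lowest percentile, up to 4 per gene list, the 5 largest midpoint shifts in each direction, the 3 nearest the edge of the selection on each side and the 6 widest. Some genes that the rule names are not reported here. Lists were compared by exact permutation tests (Python 3.11.15, numpy 2.4.6, scipy 1.17.1). The scripts were tested on simulated peaks, of which 399 of 400 regions were placed as made. With no counts, the precision rests on 2 mice per group. Alternatives were the upper 50% of peaks by score, a merge distance of 100 bp, other transcripts, motifs and windows, leaving out each list, and a replicate block.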

Additional observations from a re-analysis of the deposited data

How the results depend on the processing

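The number of recurrent stop codon regions was 796 with the upper 50% of peaks by score and 1003 when all 4 lists were required, against 1617. Leaving out 1 list and asking for all 3 others gave 1087 to 1187. Merging within 100 bp, any stop codon, own peaks over the stop codon or, chosen after seeing the data, the longest spliced transcript gave 1147 to 1699. Leaving out 1 list turned the direction of the KO minus WT difference in the stop codon share (-2.93 to 0.710 percentage points; it rose above 0 without WT-2, at 0.710, and without KO-1, at 0.237) and in the peak position (-10.9 to 6.63 bases; above 0 without WT-2, at 5.5, and without KO-1, at 6.63). The difference in width stayed above 0, at 36.0 to 85.0 bp. Region by region, same-numbered lists did not deviate together in score percentile (r = 0.00538 over 1003 regions). Over whole lists, the second list of each genotype stood above the first in stop codon share: 34.8% and 33.2% against 31.2% and 30.5%. The same held for peak position, at 98.5 and 97.5 against 83.25 and 80.0 bases. Leaving out 1 list therefore also left the numbers unbalanced between genotypes. With the numbers as a replicate block, the differences were -1.11 percentage points, -2.13 bases and 60.5 bp. The exact sign-flip p was 0.5 for each, the smallest that 2 pairs allow. The share of regions with GGAC was 44.0% within 50 bases and 84.8% within 200 bases. It was 30.1% for GGACT, 99.6% for DRACH and, chosen after seeing the data, 69.8% for the reversed letters. Regions with a higher score in both WT lists fell from 133 to 85 on raw scores, next to 206 and 132 of all 2203 regions. Leaving out peaks partly off the transcript, chosen after seeing the data, gave differences of -1.25 percentage points, -0.75 bases and 57.5 bp. The depth of the lists is unknown, so an absent peak was not read as an absent mark.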
